A study of Mus musculus with 11 samples.

Results

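Expression in the mouse carotid body was compared with expression in the superior cervical ganglion on 7 arrays, 3 of carotid body and 4 of ganglion, out of 11 in the series. The carotid body is a small organ at the fork of the carotid artery whose glomus cells, catecholamine-storing cells of neural crest origin, sense low blood oxygen and excite afferent nerve endings. They lie in clusters wrapped by glia-like cells within a dense bed of vessels and connective tissue. The superior cervical ganglion is the uppermost ganglion of the sympathetic chain and holds noradrenergic neurons with long axons, together with satellite glia and Schwann cells. Both groups came from untreated wild-type C57B6 mice of both sexes aged 2 months. Organs of 10 mice were pooled for a carotid body sample and organs of 3 mice for a ganglion sample, so a replicate is a pool of organs and the spread between animals was not measured. The labels state neither how the organs were freed from neighbouring tissue nor whether any animal gave tissue to more than 1 pool.

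Of 65956 transcript clusters on the array, those paired with exactly 1 gene symbol were used, with 1 cluster per gene, which gave 30141 genes, 19055 of them marked as protein-coding. Values are log2 expression levels. A difference is the mean of the carotid body arrays minus the mean of the ganglion arrays, so that 1 is a doubling. In brackets after a gene stand its difference and the standard error (SE) from a limma fit. The means compared have n = 3 and n = 4. The SE uses a spread pooled over all arrays of the series, those of adrenal medulla included. It is therefore not the spread of the carotid body and ganglion pools alone. Where the carotid body arrays scatter widely, the SE can understate their spread. A gene is called higher or lower when its Benjamini-Hochberg adjusted p over all genes is under 0.05 and its difference is at least 1 in size, and "rose", "fell" and "changed" are used of called genes only. Levels of different genes are not compared, because each cluster has its own probes. In whole tissue, fewer cells of a type and less RNA per cell cannot be told apart.

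Before the comparison, the replicates of the carotid body were set against markers of the cell types they could hold. A tissue mean was taken as background when it lay under the 95th percentile of 349 genes of silent families (vomeronasal receptors and hair keratin-associated proteins), a bound of 5.38 in the carotid body and 5.45 in the ganglion. Of 9 measured glomus cell markers 6 were higher in the carotid body and 2 lower, and none was under the bound in both tissues. The 15 markers of sympathetic neurons averaged 12.23, 10.62 and 11.60 on carotid body replicates 1, 2 and 3 and between 14.02 and 14.38 on the ganglion arrays, and 14 of the 15 were lower. Replicate 1 was the carotid body array nearest to the ganglion mean in 1873 of 2497 genes called lower, which is 75%, and in 1094 of 1691 called higher, which is 64.7%. The replicates differed in other tissues as well. Thyroglobulin, Tg, the hormone precursor protein of the thyroid, read 5.04, 5.13 and 18.56 in the carotid body and 5.04, 5.04, 4.96 and 5.12 in the ganglion. The thyroid transcription factor Pax8 read 6.22 and the epithelial adhesion molecule Epcam read 6.35 on carotid body replicate 3, against at most 4.74 and 4.58 on the other 6 arrays. Skeletal muscle genes were high on carotid body replicate 2 alone, where the fast myosin chain Myh4 read 7.89, the fast troponin Tnnt3 8.0 and skeletal actin Acta1 8.32, against at most 5.0, 5.9 and 6.5 elsewhere. None of these 6 genes was called. Lymphocyte markers were not called either, and 8 of the 9 were under the bound in both tissues.

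**Figure D1:**
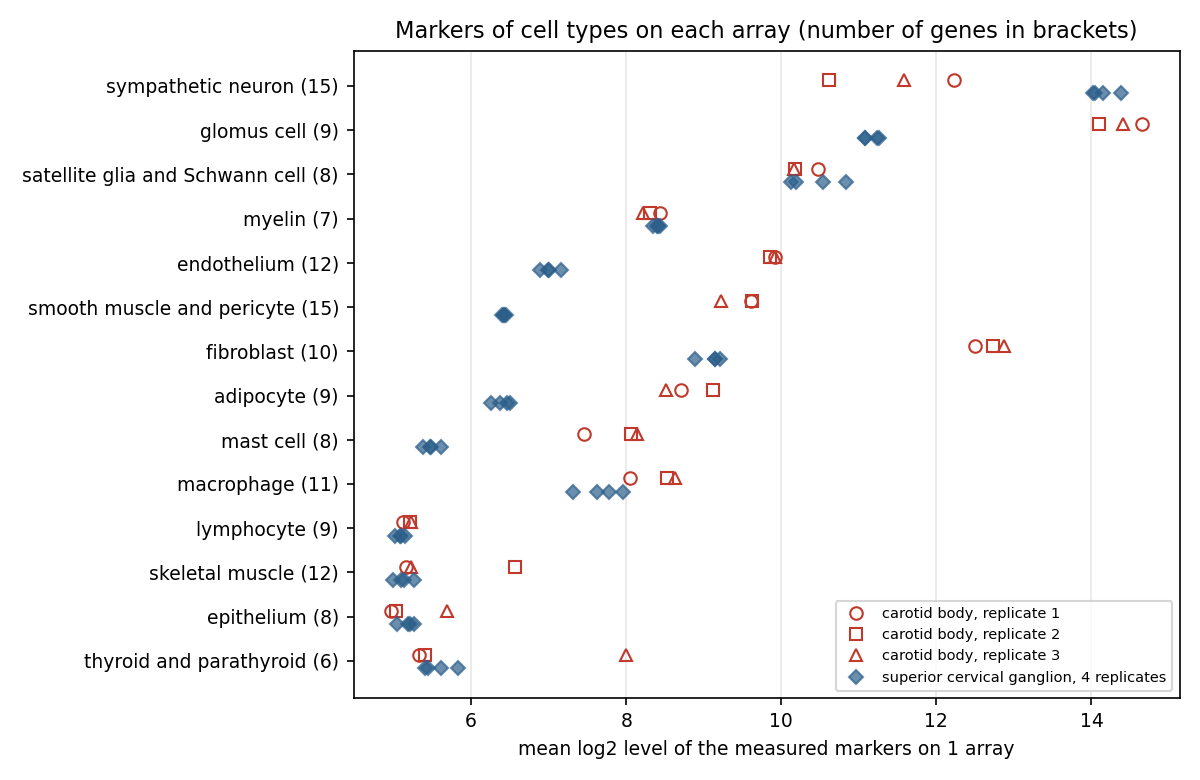
Mean log2 level of the measured markers of 14 cell types on each of the 7 arrays, with open symbols for the 3 carotid body replicates and filled diamonds for the 4 ganglion replicates. Neuron markers are highest on the ganglion arrays and lowest on carotid body replicate 2, skeletal muscle markers stand out on carotid body replicate 2, and thyroid and epithelial markers on replicate 3.

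In all, 1691 genes (5.61%) were higher and 2497 (8.28%) were lower in the carotid body, and the median difference over all genes was -0.02. Among protein-coding genes alone, 1019 (5.35%) were higher and 1980 (10.4%) lower. The largest differences were upward although more genes were lower. At 4-fold or more 448 genes were higher and 799 lower, at 16-fold or more, 77 genes were higher and 44 lower, and at 64-fold or more 15 genes were higher and 0 lower. These counts use measured means, and 14 genes were higher at 64-fold or more when arrays under the background bound described above were set to it. All carotid body arrays lay above all ganglion arrays in 14.8% of genes and below all of them in 21.1%. The balance of the calls depended on the scaling of the arrays: after a repeated quantile normalization 2150 genes were higher and 2049 lower, so the higher genes made up 51.2% of the calls in place of 40.4%. The gap between the means of the positive and the negative control features was 3.91 to 4.43 on the carotid body arrays and 4.54 to 5.24 on the ganglion arrays, without overlap. With this control gap as a covariate, an alternative chosen after the values were seen, 1079 genes were higher and 1939 lower, and named genes that lost their call with it are given below. A stricter test of whether a difference exceeds 2-fold (limma's treat) called 636 higher and 1164 lower.

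**Figure D2:**
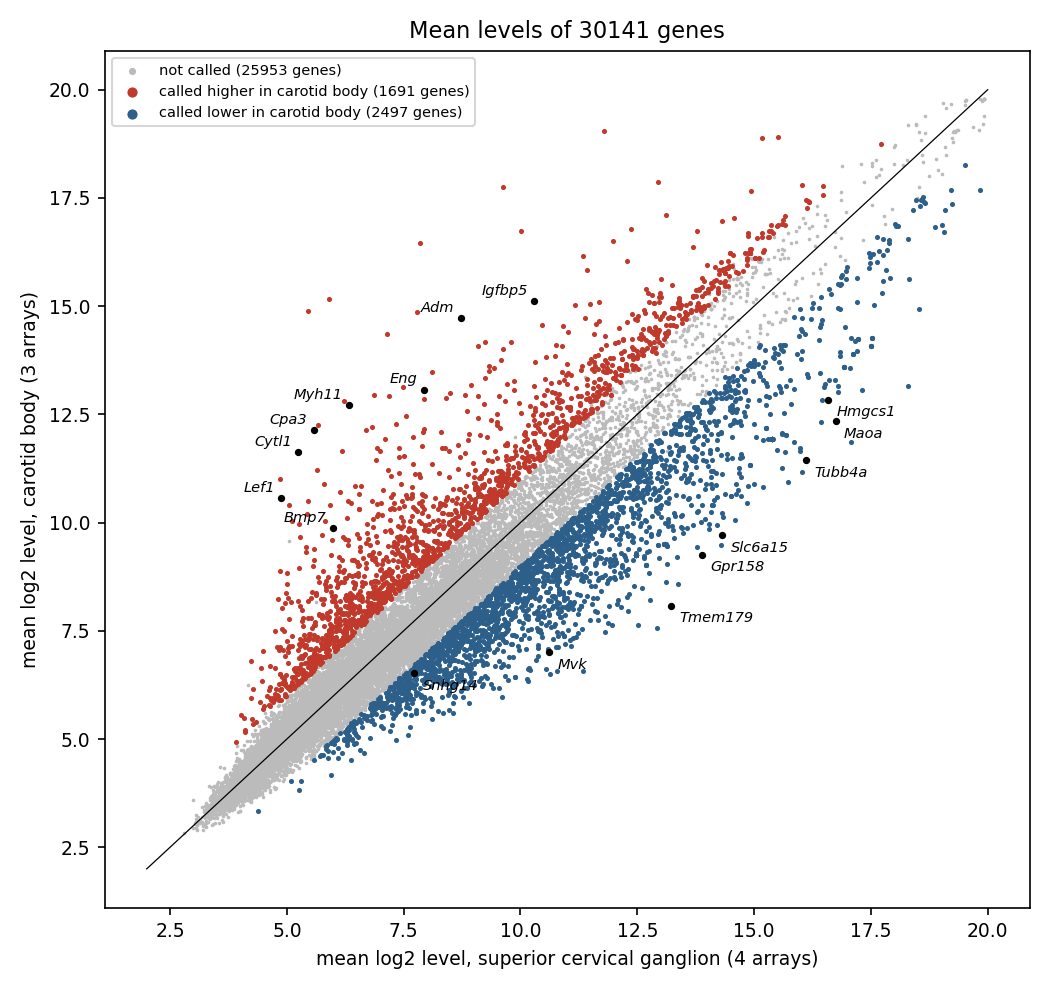
Mean log2 level of each of 30141 genes in the ganglion (x axis, 4 arrays) and in the carotid body (y axis, 3 arrays), with equal levels on the line. The 1691 genes called higher lie above the line and reach farther from it than the 2497 called lower, and the genes marked are described in the text.

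Among the 30 protein-coding genes with the largest differences upward, several kinds of secreted, vascular and contractile gene were found. The mast cell protease carboxypeptidase A3, Cpa3, read 11.61, 12.52 and 12.27 in the carotid body and 5.36, 5.84, 5.84 and 5.26 in the ganglion, a difference of 6.56 ± 0.24 (adjusted p = 2.18e-08). The mast cell proteases Mcpt4 (5.58 ± 0.28) and Tpsb2 (4.94 ± 0.23) stood with it. Among mast cell markers 4 of 8 were higher and 1 lower, with array means of 7.45 to 8.14 in the carotid body and 5.38 to 5.61 in the ganglion, and the part of these cells was not tested. The smooth muscle myosin chain Myh11 read 12.92, 12.95 and 12.29 in the carotid body and 6.19, 6.25, 6.38 and 6.47 in the ganglion, and Tagln (5.73 ± 0.30) and Myl9 (5.63 ± 0.22), an actin-binding protein and a myosin light chain of the same cells, were also in this set. Cytl1, a small secreted cytokine-like protein, read 10.56, 12.52 and 11.77 in the carotid body and 5.32, 5.4, 5.04 and 5.2 in the ganglion (difference 6.38 ± 0.36). The sodium-proton exchanger Slc9a2 read 11.34, 10.99 and 10.70 in the carotid body and 5.1, 4.67, 4.58 and 5.02 in the ganglion (difference 6.16 ± 0.17, adjusted p = 3.08e-09). Genes whose tissues overlapped were left out when the 30 were picked, so the separation of the arrays is not a result. Where a tissue lay under the background bound the fold was taken against the bound, and it was at least 72.2-fold for Cytl1 and at least 47.3-fold for Slc9a2. In 26 called genes named here 1 tissue mean lay under the bound, so that their printed differences hold a level at background, and among them the fold was at least 24.2 for Tpsb2, 13.99 for Pdgfd, 6.54 for Cox8b, 6.49 for Sox18 and 6.02 for Hhip.

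Further members of this set were the cytochrome P450 enzymes Cyp1b1 (6.07 ± 0.16) and Cyp2e1 (5.37 ± 0.25), the vasodilator peptide gene Adm (6.0 ± 0.27), the matricellular growth factor Ccn2 (5.47 ± 0.16), the fibril-associated collagen Col12a1 (5.45 ± 0.21) and the fatty acid carrier of fat cells and capillaries Fabp4 (4.99 ± 0.30). Nptx1 (5.09 ± 0.18), a secreted pentraxin of synapses, Epha3 (5.37 ± 0.16), an ephrin receptor, and Trpc5 (5.06 ± 0.24), a cation channel subunit, belong to classes that are often neuronal and were higher in the carotid body all the same. Nptx1 read 11.23, 10.71 and 10.72 in the carotid body and 6.07, 5.52, 5.71 and 5.9 in the ganglion. Trpc5 read 11.10, 10.28 and 10.15 in the carotid body and 5.92, 5.31, 5.22 and 5.36 in the ganglion, with 3 of the 4 ganglion arrays under the bound of 5.45. The homeobox genes Dlx5 (4.77 ± 0.21) and Dlx6 (2.75 ± 0.13), neighbours in the genome that pattern the branchial arches, were named after their values were seen, and Dlx5 read 9.55, 10.52 and 10.56 in the carotid body and 5.29, 5.39, 5.55 and 5.52 in the ganglion.

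The 30 largest differences downward included many genes known for their roles in neurons. Tmem179, a membrane protein of little known function, read 9.26, 7.03 and 7.96 in the carotid body and 13.49, 12.83, 12.81 and 13.73 in the ganglion, a difference of -5.13 ± 0.46 (adjusted p = 9.49e-06). The stress-activated kinase Mapk11 read 10.01, 7.55 and 8.19 in the carotid body and 13.45, 13.15, 13.42 and 13.51 in the ganglion (difference -4.8 ± 0.44). The orphan receptor of the synapse Gpr158 read 10.60, 7.99 and 9.19 in the carotid body and 14.10, 13.56, 13.65 and 14.24 in the ganglion. Carotid body replicate 1 was the highest of the carotid body arrays in all 3 genes. In this direction too, only genes without overlap between the tissues could enter the set. The set also held the amino acid transporter Slc6a15 (-4.61 ± 0.31), the phosphatase inhibitor subunit Ppp1r1c (-4.5 ± 0.22), the axon survival enzyme Nmnat2 (-4.15 ± 0.43), the actin-bundling protein Avil (-4.26 ± 0.46) of peripheral neurons, the tubulin-modifying enzyme Ttll1 (-4.19 ± 0.48), the nucleotidase Nt5c1a (-4.35 ± 0.39), the secreted bone morphogenetic protein (BMP) modulator Vwc2l (-4.75 ± 0.22) and the monoamine oxidases Maoa (-4.4 ± 0.47) and Maob (-4.2 ± 0.43). Cyp2j12 (-4.57 ± 0.37), Tspan8 (-4.52 ± 0.34), Susd2 (-4.34 ± 0.54) and Bmerb1 (-4.32 ± 0.32) were also in it.

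The share of called members differed widely between 64 pathway and family lists, from lists in which all called members were higher to lists in which all of them were lower. Their counts are read against the 5.61% and 8.28% called over all genes. The shares over protein-coding genes alone were 5.35% higher and 10.4% lower. Genes named from a list are mostly its called members with the largest differences. Where such genes are said below not to overlap between the tissues, this follows largely from that choice and is not a result. Over all genes the carotid body arrays lay above all ganglion arrays in 14.8% and below all of them in 21.1%.

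**Figure D3:**
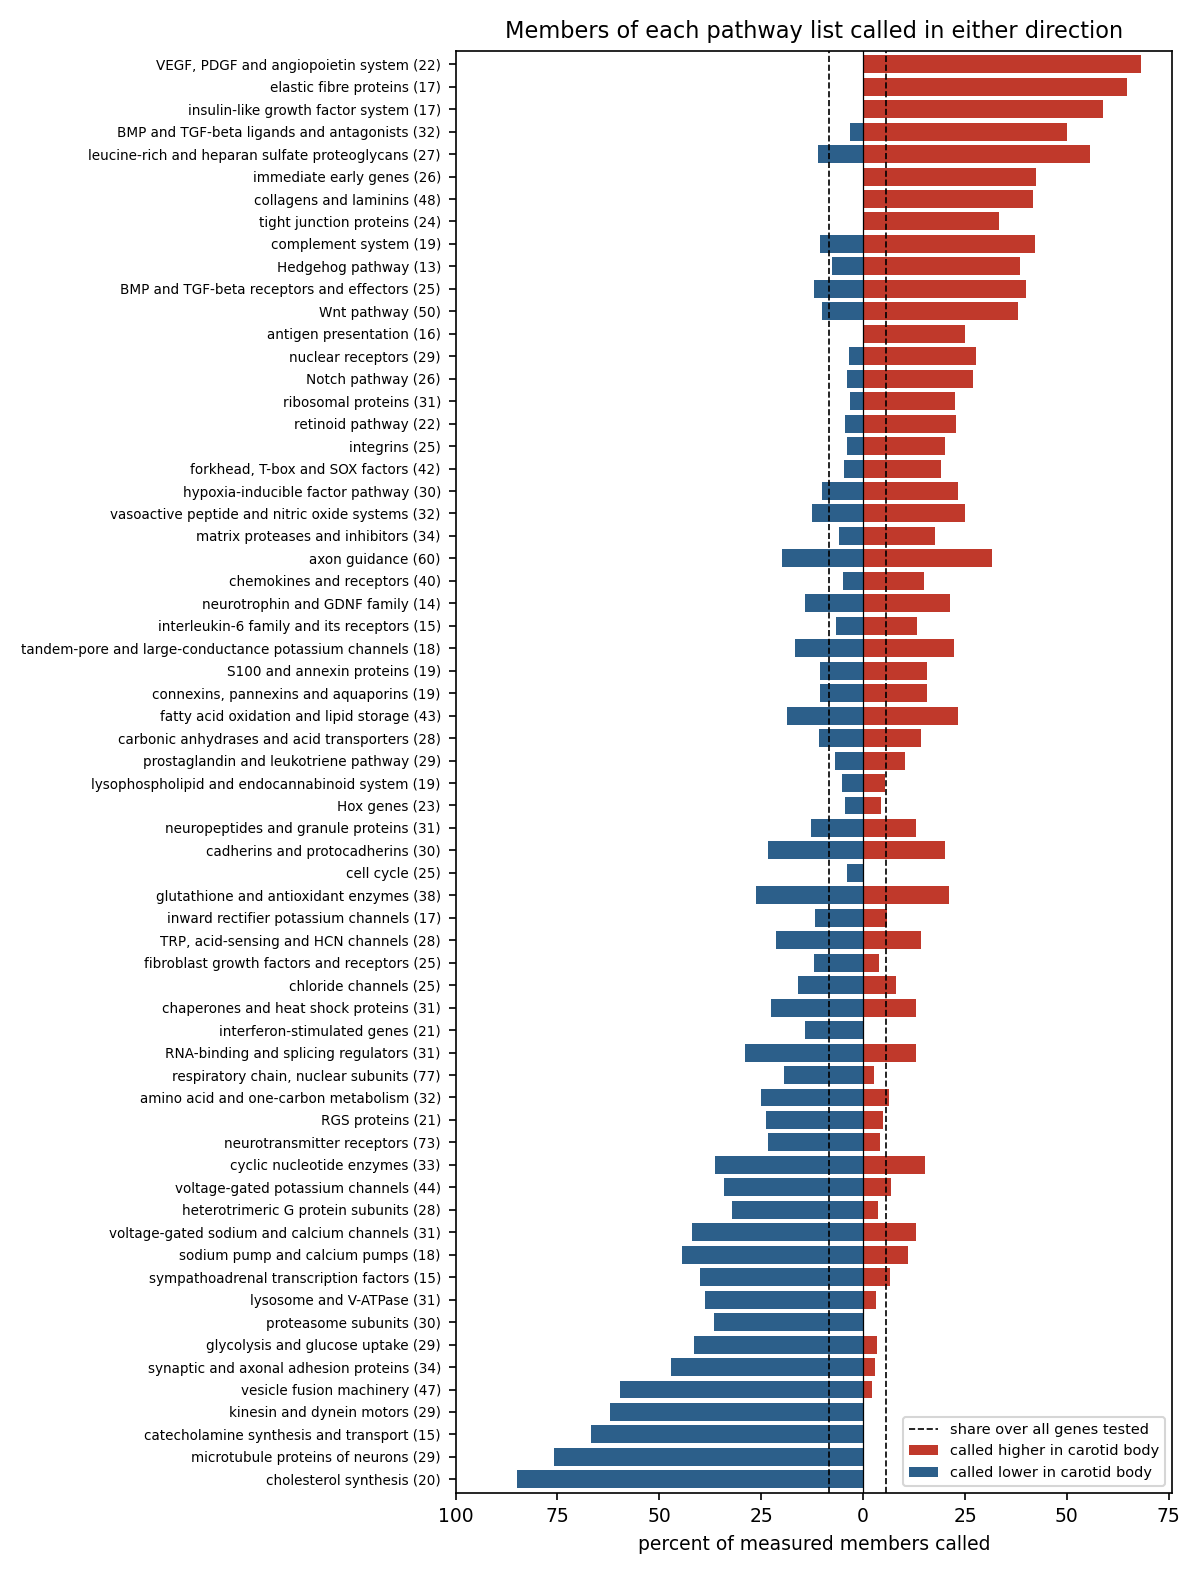
Percent of the measured members of each of 64 lists called higher (right, red) and lower (left, blue) in the carotid body, with the number measured in brackets and the shares over all genes, 5.61% and 8.28%, as dashed lines. The vascular growth factor, elastic fibre and insulin-like growth factor lists are at the top, and the cholesterol synthesis and microtubule lists at the bottom.

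Secreted ligands and antagonists of the transforming growth factor beta (TGF-beta) superfamily were often higher. These dimeric ligands signal through paired kinase receptors to Smad proteins, and latent TGF-beta is held in the matrix by binding proteins. Fibroblast markers, 10 of 10, and smooth muscle and pericyte markers, 11 of 15, were higher as well, with array means of 12.49 to 12.88 in the carotid body and 8.89 to 9.22 in the ganglion and of 9.22 to 9.62 in the carotid body and 6.39 to 6.44 in the ganglion, and their part in the growth factor lists here and in the Wnt and Hedgehog lists was not tested. Of 32 ligands and antagonists, 16 were higher and 1 lower, with a median difference of 0.90. Bmp7 read 10.14, 9.62 and 9.86 in the carotid body and 6.25, 5.56, 5.94 and 6.17 in the ganglion, a difference of 3.89 ± 0.20 (adjusted p = 2.87e-07). Bmp6 (2.75 ± 0.14) and Bmp2 (2.73 ± 0.11) rose with it, and Bmp3 (-2.25 ± 0.24), which opposes BMP signals, fell. The latent TGF-beta binding proteins Ltbp4 (4.92 ± 0.18) and Ltbp1 (3.06 ± 0.11) and the BMP antagonist Chrdl1 (3.65 ± 0.17) rose, as did Tgfb1 (1.7 ± 0.24) and Tgfb3 (1.75 ± 0.12), while Tgfb2 differed by 0.80 ± 0.14 and was not called. Ltbp4 read 13.34, 12.46 and 12.76 in the carotid body and 7.97, 7.79, 7.98 and 7.98 in the ganglion. No carotid body array overlapped the ganglion range in either of the genes given by array, but both were picked from the called members.

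On the receiving side, 10 of 25 receptors and effectors were higher and 3 lower, with a median of 0.74. The endothelial co-receptor endoglin, Eng, read 13.38, 12.91 and 12.91 in the carotid body and 7.85, 8.0, 8.2 and 7.65 in the ganglion. The Id proteins Id2 (2.81 ± 0.24) and Id1 (2.45 ± 0.14), which are standard targets of BMP signals and block differentiation factors, and the type II receptor Tgfbr2 (2.16 ± 0.14) rose. Bmpr1b (-1.57 ± 0.14), Smad9 (-1.19 ± 0.14) and Smad2 (-1.03 ± 0.12) were the members called lower. Smad9 lost its call with the control gap as a covariate, and Smad2 lost it there, after repeated quantile normalization, with the mean of the control features as a covariate, with array weights, without carotid body replicate 2 and without ganglion replicate 4.

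The insulin-like growth factor (IGF) system, in which binding proteins hold and release the ligands, had these counts: 10 of 17 were higher and 0 lower (1 lower at an unadjusted limma p under 0.05), with a median of 1.25. Beyond Igfbp3 (difference 7.21), the binding proteins Igfbp5 (4.81 ± 0.21), Igfbp7 (4.0 ± 0.16) and Igfbp4 (3.34 ± 0.17) rose. Igfbp5 read 15.16, 14.92 and 15.24 in the carotid body and 10.63, 9.9, 10.56 and 10.10 in the ganglion. The ligands Igf2 (2.47 ± 0.17) and Igf1 (2.05 ± 0.22) also rose. The vascular endothelial growth factor (VEGF), platelet-derived growth factor (PDGF) and angiopoietin system changed in the same direction: 15 of 22 were higher and 0 lower (1 lower at an unadjusted limma p under 0.05), with a median of 1.61. The ligand Pdgfd read 9.16, 9.52 and 9.29 in the carotid body and 5.21, 5.73, 5.43 and 5.28 in the ganglion, a difference of 3.91 ± 0.21 (adjusted p = 2.87e-07). The endothelial receptors Kdr (3.73 ± 0.17) and Tek (3.45 ± 0.08) and the pericyte receptor Pdgfrb (3.33 ± 0.21) rose with it. Markers of endothelium moved in the same direction, 12 of 12, with array means of 9.85 to 9.92 in the carotid body and 6.88 to 7.15 in the ganglion, and their part in these lists was not tested.

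Genes of vessel tone were split. Of 32 vasoactive peptide and nitric oxide genes 8 were higher and 4 lower, with a median of 0.11. Adm read 14.78, 14.52 and 14.86 in the carotid body and 9.23, 8.05, 8.6 and 9.0 in the ganglion, and Calcrl (1.96 ± 0.17) and Ramp2 (1.41 ± 0.19), which together form the adrenomedullin receptor, rose as well. The natriuretic peptide receptor Npr1 (3.38 ± 0.16) and endothelin 1, Edn1 (2.08 ± 0.19), rose, whereas endothelin 3, Edn3 (-3.37 ± 0.27), the endothelin B receptor Ednrb (-2.91 ± 0.17) and the endothelin-converting enzyme Ece2 (-2.04 ± 0.17) fell. Edn3 read 9.01, 7.51 and 8.28 in the carotid body and 11.69, 11.65, 11.44 and 11.76 in the ganglion, and Ednrb read 9.84, 9.1 and 9.24 in the carotid body and 12.55, 12.30, 12.29 and 12.06 in the ganglion. The ganglion was the higher tissue in both genes without overlap. The guanylyl cyclase subunit Gucy1b1 (-1.67 ± 0.28) fell and lost its call with the control gap as a covariate.

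Developmental signalling pathways were represented by several called genes each. In the Wnt pathway 19 of 50 members were higher and 5 lower, with a median of 0.41. The transcription factor Lef1, which carries the Wnt signal to the genome, read 10.07, 10.67 and 10.96 in the carotid body and 5.03, 4.97, 4.7 and 4.82 in the ganglion (difference 5.69 ± 0.18, adjusted p = 7.71e-09), with 4 ganglion arrays under the background bound, which makes it at least 34.8-fold higher. The secreted modulators Sfrp4 (4.38 ± 0.28), Rspo1 (3.81 ± 0.27) and Sfrp2 (2.71 ± 0.17) rose, and Dkk3 (-2.41 ± 0.31), Dkk1 (-1.64 ± 0.25), Fzd3 (-1.41 ± 0.14), Lgr5 (-1.03 ± 0.17) and Lgr4 (-1.01 ± 0.23) fell. The lower count was 3 without carotid body replicate 2, after repeated quantile normalization and with the control gap as a covariate. Lgr5 and Lgr4 lost their calls in all 3 of these settings, and Dkk1 with the control gap alone. Lgr5 also lost its call without carotid body replicate 3 and without ganglion replicate 1, and Lgr4 without ganglion replicates 2 and 3 in turn.

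In the Hedgehog pathway 5 of 13 genes were higher and 1 was lower. The Hedgehog-binding protein Hhip read 8.08, 8.09 and 7.94 in the carotid body and 4.99, 4.75, 4.94 and 4.9 in the ganglion, a difference of 3.14 ± 0.24. The receptor Ptch1 (1.63 ± 0.14), the transcription factor Gli1 (1.59 ± 0.16) and the co-receptors Cdon (1.66 ± 0.17) and Boc (1.38 ± 0.12) rose. Ptch1, Gli1 and Hhip are standard transcriptional targets of the pathway, and the Schwann cell ligand Dhh (-1.04 ± 0.17) was the member called lower, a call lost with either control covariate and without carotid body replicates 2 and 3 and ganglion replicates 1 and 2 in turn. In the Notch pathway 7 of 26 genes were higher and 1 lower. The ligand Jag1 (3.38 ± 0.21) and the mural cell receptor Notch3 (2.48 ± 0.17) led, followed by Dlk1 (2.13 ± 0.17), Mfng (1.56 ± 0.14) and Notch2 (1.44 ± 0.19). Hey2 (-1.03 ± 0.30) fell, a call lost after repeated quantile normalization and without carotid body replicates 1 and 2 and ganglion replicates 2 and 3 in turn. Jag1 read 11.64, 11.06 and 10.64 in the carotid body and 7.58, 7.83, 7.98 and 7.55 in the ganglion. Of 25 fibroblast growth factor genes only Fgf7 (2.05 ± 0.08) rose, and Fgf14 (-3.76 ± 0.22), a partner of sodium channels, Spry4 (-1.75 ± 0.23) and Fgf1 (-1.42 ± 0.15) fell. Of 22 retinoid genes 5 rose, led by the retinoic acid-forming enzyme Aldh1a1 (2.92 ± 0.31), Rbp4 (2.6 ± 0.15), Dhrs3 (2.47 ± 0.13) and Aldh1a7 (2.34 ± 0.36), and Rarres1 (-1.55 ± 0.20) fell.

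Several matrix lists had many higher members. Among elastic fibre genes 11 of 17 were higher and 0 lower (2 lower at an unadjusted limma p under 0.05), with a median of 1.83. Elastin, Eln, read 12.13, 11.78 and 11.38 in the carotid body and 7.78, 8.02, 7.85 and 7.89 in the ganglion. The microfibril protein Mfap5 (4.27 ± 0.16), the crosslinking enzyme Loxl1 (4.03 ± 0.20) and the fibulin Efemp1 (3.4 ± 0.14) rose too. Of 27 proteoglycans 15 were higher and 3 lower, with a median of 1.64. Asporin, Aspn, which binds collagen and TGF-beta, read 11.85, 12.54 and 12.42 in the carotid body and 7.69, 7.13, 7.19 and 7.37 in the ganglion, a difference of 4.92 ± 0.18 (adjusted p = 2.25e-08). The small proteoglycans Ogn (4.42 ± 0.16), Omd (4.28 ± 0.19) and Prelp (3.35 ± 0.11) rose with it. The members that fell, Bcan (-1.16 ± 0.11), Ncan (-1.01 ± 0.09) and Gpc2 (-1.0 ± 0.14), are proteoglycans of nervous tissue, and the calls of Ncan and Gpc2, both close to the 2-fold limit, were lost with either control covariate, with array weights, and without ganglion replicates 1 and 4 in turn. Ncan also lost its call without carotid body replicate 3, and Gpc2 with the replicate number as a block. Among collagens and laminins 20 of 48 were higher and 0 lower (0 lower at an unadjusted limma p under 0.05), beginning with Col12a1 and the fibrillar chains Col1a1 (4.94 ± 0.17), Col3a1 (4.14 ± 0.14) and Col1a2 (3.39 ± 0.14). The laminin chain Lamb2 (3.19 ± 0.13) also rose. The 10 fibroblast markers were all higher, as given above, and their part in the matrix lists was not tested.

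Cell contact genes differed by class. Among tight junction genes 8 of 24 were higher and 0 lower (1 lower at an unadjusted limma p under 0.05), among them Cldn5 (2.17 ± 0.16) and Cldn1 (2.07 ± 0.20), the adaptor Cgnl1 (1.73 ± 0.11) and the adhesion molecule F11r (1.69 ± 0.16). Integrins, the receptors of matrix, had 5 of 25 members higher, Itga8 (6.59 ± 0.29), Itga9 (2.55 ± 0.16), Itga5 (2.49 ± 0.16), Itgb5 (2.21 ± 0.15) and Itgb4 (2.13 ± 0.22), and 1 lower, Itga3 (-2.19 ± 0.32). Cadherins were divided, with 6 of 30 higher and 7 lower. Cdh5 (4.24 ± 0.17), the cadherin of endothelium, rose, as did Cdh13 (2.68 ± 0.13), Cdh9 (2.35 ± 0.13) and Pcdh15 (1.8 ± 0.10), and Cdh8 (-3.76 ± 0.26), Pcdh10 (-3.56 ± 0.28), Pcdh17 (-2.39 ± 0.31) and Pcdh9 (-1.86 ± 0.14) fell. Pcdh10 read 8.26, 6.67 and 7.18 in the carotid body and 10.97, 10.80, 10.93 and 11 in the ganglion. Without carotid body replicate 3 the number of cadherins called higher was 10. Of 34 matrix proteases and inhibitors 6 rose, led by the protease inhibitor Reck (2.79 ± 0.12) and Adamts1 (2.11 ± 0.37), and 2 fell, Adam22 (-1.48 ± 0.15), a synaptic protein without protease activity, and Mmp2 (-1.35 ± 0.24). Mmp2 lost its call after repeated quantile normalization and with the control gap as a covariate.

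Immune lists differed in their share of called members. Of 19 complement genes 8 were higher and 2 lower. The complement inhibitor Serping1 read 15.91, 16.02 and 16.22 in the carotid body and 12.55, 12.23, 12.27 and 12.06 in the ganglion (difference 3.77 ± 0.13). The proteases and components C1ra (3.16 ± 0.11), C4b (3.15 ± 0.09) and the scavenger receptor Colec12 (2.49 ± 0.12) rose, while the membrane regulators Cd59a (-1.81 ± 0.35) and Cd55 (-1.09 ± 0.22) fell. Cd55 lost its call without carotid body replicate 1, with array weights, after repeated quantile normalization and with the control gap as a covariate. Of 16 antigen presentation genes 4 rose, the class II chains H2-Ab1 (2.43 ± 0.26), H2-Eb1 (2.06 ± 0.23) and H2-Aa (1.46 ± 0.21) and the chaperone subunit H2-DMb1 (1.13 ± 0.19). H2-Aa and H2-DMb1 lost their calls with the control gap as a covariate, and H2-DMb1 also without carotid body replicate 2. Of 40 chemokines and receptors 6 were higher and 2 lower, led by Cxcl12 (4.18 ± 0.15), the ligand of Cxcr4. The higher count was 4 without carotid body replicate 3, 8 without replicate 1 and 3 with the control gap as a covariate. Cxcl12 read 10.27, 10.49 and 10.70 in the carotid body and 6.04, 6.51, 6.56 and 6.11 in the ganglion, and its receptor Cxcr4 read 8.6, 6.63 and 7.48 in the carotid body and 13.37, 12.99, 12.56 and 12.79 in the ganglion, so ligand and receptor differed in opposite directions. Among interferon-stimulated genes 3 of 21 were lower and 0 higher (5 higher at an unadjusted limma p under 0.05). Stat2 (-1.55 ± 0.24), Oasl2 (-1.22 ± 0.18) and Ifit1 (-1.09 ± 0.23) fell, and each lost its call with the control gap as a covariate, Ifit1 also with the mean of the control features as a covariate, with array weights, after repeated quantile normalization and without carotid body replicate 2.

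Transcription factors called higher were spread over several families. Of 42 forkhead, T-box and SOX factors 8 were higher and 2 lower. The endothelial factor Sox18 (3.19 ± 0.16) led, followed by Foxc2 (1.83 ± 0.19), Foxo1 (1.72 ± 0.17) and Foxc1 (1.31 ± 0.09), and Tbx20 (-1.53 ± 0.23) and Tbx3 (-1.11 ± 0.30) fell. Sox18 read 8.22, 7.9 and 8.31 in the carotid body and 4.72, 4.67, 5.25 and 5.19 in the ganglion. Of 29 nuclear receptors 8 were higher and 1 lower. They included the clock repressor Nr1d1 (3.0 ± 0.66), the venous identity factor Nr2f2 (2.4 ± 0.27), Thrb (1.7 ± 0.15) and Nr4a2 (1.43 ± 0.12), and Rorb (-1.89 ± 0.34) fell. Nr1d1, Tbx20 and Rorb lost their calls with the control gap as a covariate, and Tbx3 with that covariate, after repeated quantile normalization, with array weights and without carotid body replicate 2. Of 23 Hox genes Hoxa2 (2.26 ± 0.21) rose and Hoxc4 (-1.38 ± 0.17) fell, and 16 were under the bound in both tissues. Immediate early genes, which many stimuli switch on within minutes, gave these counts: 11 of 26 were higher and 0 lower (1 lower at an unadjusted limma p under 0.05), with a median of 0.72. Egr1 read 10.28, 10.10 and 10.05 in the carotid body and 8.28, 7.64, 7.3 and 7.46 in the ganglion, a difference of 2.47 ± 0.33 (adjusted p = 0.000147). Fos read 8.82, 7.51 and 7.26 in the carotid body and 6.07, 5.76, 5.4 and 5.61 in the ganglion, with replicate 1 above the other 2 carotid body arrays. Klf2 (2.82 ± 0.20), Zfp36 (2.21 ± 0.23) and Klf4 (2.14 ± 0.19) rose as well. The call of Fos was lost with array weights, without carotid body replicate 1 and without ganglion replicate 3.

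Genes of the axonal cytoskeleton were often lower. Microtubules are the tracks of axonal transport, along which kinesins and dynein move cargo. Among microtubule genes 22 of 29 were lower and 0 higher (0 higher at an unadjusted limma p under 0.05), with a median of -1.86. The shares called lower were 8.28% over all genes and 10.4% over protein-coding genes. Tubb4a read 13.58, 9.94 and 10.79 in the carotid body and 16.31, 15.52, 15.80 and 16.79 in the ganglion, a difference of -4.67 ± 0.68 (adjusted p = 0.000286). Tuba4a read 11.45, 9.11 and 10.79 in the carotid body and 15.08, 14.25, 14.71 and 15.38 in the ganglion. Tubb3 (-4.24 ± 0.49) and Tubb2b (-3.95 ± 0.42) fell too. Among kinesin and dynein genes 18 of 29 were lower and 0 higher (1 higher at an unadjusted limma p under 0.05), with a median of -1.19, and 11 were lower with the control gap as a covariate. Kif21a read 12.29, 10.10 and 11.04 in the carotid body and 14.72, 14.33, 14.65 and 15.01 in the ganglion (difference -3.54 ± 0.39), and Kif5a (-3.3 ± 0.39), Kif3c (-2.97 ± 0.31) and Kif5c (-2.89 ± 0.22) fell. The spread was wider within the carotid body than within the ganglion in Kif21a and in the tubulins given by array, with replicate 1 the highest and replicate 2 the lowest. The neuron markers had the same order on these arrays, and so did the mean over all genes called lower.

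Genes of transmitter release and of synaptic adhesion followed. Here and in the cytoskeletal lists the neuron markers moved in the same direction, 14 of 15 lower, and their part in these counts was not tested. Of 47 vesicle fusion genes 28 were lower and 1 higher, with a median of -1.44. The granule priming factor Cadps read 11.27, 9.02 and 9.92 in the carotid body and 14.11, 13.57, 13.78 and 14.34 in the ganglion, a difference of -3.88 ± 0.42 (adjusted p = 3.41e-05). The vesicle protein Sv2c (-3.73 ± 0.40) and the calcium sensors Syt4 (-3.61 ± 0.39) and Syt5 (-3.6 ± 0.35) fell. The member that rose was Snap23 (1.3 ± 0.21), a widely expressed relative of Snap25, whose call was lost with the control gap as a covariate. Of 34 synaptic and axonal adhesion genes 16 were lower and 1 higher, with a median of -0.91. Ncam2 (-4.1 ± 0.40), Cntnap2 (-4.0 ± 0.41), Nrcam (-3.98 ± 0.44) and Cntn3 (-3.67 ± 0.31) fell, and Slitrk6, a neuronal adhesion protein, rose by 3.64 ± 0.26. Slitrk6 read 9.76, 9.49 and 9.57 in the carotid body and 5.45, 5.85, 6.65 and 5.93 in the ganglion. Splicing regulators changed in both directions, with 4 of 31 higher and 9 lower. Celf4 (-3.22 ± 0.42), Elavl3 (-3.01 ± 0.28), Celf6 (-2.63 ± 0.24) and Elavl4 (-2.38 ± 0.22) fell, all RNA-binding proteins of neurons, and Rbpms (3.78 ± 0.25), of smooth muscle and heart, Ptbp1 (1.5 ± 0.08), Ptbp3 (1.38 ± 0.10) and Mbnl1 (1.32 ± 0.12) rose. Rbpms read 9.63, 10.85 and 10.47 in the carotid body and 6.38, 6.54, 6.96 and 6.26 in the ganglion.

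Axon guidance genes were divided, with 19 of 60 higher and 12 lower and a median of 0.22. Epha3 read 10.52, 10.61 and 10.10 in the carotid body and 5.36, 5.0, 4.68 and 5.16 in the ganglion, with all 4 ganglion arrays under the background bound, which makes it at least 31.3-fold higher. The netrins Ntn4 (3.46 ± 0.08) and Ntn1 (2.77 ± 0.13) and Epha4 (2.02 ± 0.12) rose, and the semaphorin receptor Plxna4 (-3.42 ± 0.36), the netrin-related Ntng1 (-2.97 ± 0.26), Epha5 (-2.68 ± 0.27) and Plxnc1 (-2.62 ± 0.21) fell. Ntn4 read 10.94, 10.90 and 10.86 in the carotid body and 7.37, 7.37, 7.62 and 7.37 in the ganglion. Plxna4 read 10.32, 8.33 and 9.0 in the carotid body and 12.62, 12.28, 12.68 and 12.99 in the ganglion. In both genes the tissues were far apart, in opposite directions. The lower count was 7 with the control gap as a covariate. Of 14 neurotrophin and GDNF family genes, Ntrk3 (3.24 ± 0.08), Gfra3 (1.68 ± 0.30) and Gdnf (1.06 ± 0.10) rose and Ret (-4.33 ± 0.58) and Ngfr (-4.09 ± 0.60) fell, and Gdnf was under the bound in both tissues and lost its call with median centring, with array weights and without carotid body replicate 2. Ngfr, a receptor of sympathetic neurons and Schwann cells, read 14.17, 10.67 and 12.16 in the carotid body and 16.38, 16.22, 16.47 and 16.64 in the ganglion. Ntrk3 read 11.42, 11.35 and 11.28 in the carotid body and 8.01, 8.01, 8.23 and 8.18 in the ganglion.

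Ion channel lists held both directions. Neuron markers, 14 of 15 lower, moved with the channels and receptors that fell, and their part was not tested. Of 44 voltage-gated potassium channel genes 15 were lower and 3 higher, with Kcnq3 (-4.34 ± 0.46), Kcnh5 (-3.63 ± 0.18), Kcnc4 (-3.6 ± 0.37) and Kcnd2 (-3.51 ± 0.26) falling and Kcnip3 (2.65 ± 0.17), Kcna1 (2.05 ± 0.35) and Kcne4 (1.05 ± 0.20) rising. Of 31 sodium and calcium channel genes 13 were lower and 4 higher, with Cacng3 (-3.91 ± 0.32), Scn9a (-3.9 ± 0.37), Scn2b (-3.51 ± 0.22) and Scn1a (-3.23 ± 0.21) falling and Scn7a (2.67 ± 0.20), Cacna1i (1.57 ± 0.13), Cacna1h (1.42 ± 0.19) and Cacna1c (1.09 ± 0.16) rising. Scn9a, the channel of sympathetic and sensory axons, read 9.58, 7.5 and 8.54 in the carotid body and 12.41, 12.13, 12.47 and 12.73 in the ganglion. Scn7a, an atypical member of the same family, read 17.18, 17.07 and 16.68 in the carotid body and 14.23, 14.13, 14.73 and 14.13 in the ganglion. Among tandem-pore and large-conductance channels, Kcnk3 (1.5 ± 0.23) and the subunits Kcnmb1 (2.2 ± 0.15) and Kcnmb2 (1.58 ± 0.19) rose beside Kcnk9, and Kcnk18 (-2.65 ± 0.24), Kcnk10 (-1.85 ± 0.13) and Kcnmb4 (-1.18 ± 0.15) fell. Of 28 TRP, acid-sensing and HCN channel genes 4 were higher and 6 lower, and Asic2 (-3.75 ± 0.31) had the largest fall. The inward rectifier partner Abcc9 (4.92 ± 0.14) of mural cells rose and Kcnj3 (-3.02 ± 0.23) and Kcnj10 (-1.54 ± 0.20) fell. In the list of chloride channels and transporters, Clic5 (2.46 ± 0.11) and Clic4 (1.65 ± 0.17) rose. Clcn6 (-2.82 ± 0.27), the transporter Slc12a2 (-1.41 ± 0.19), Clcn3 (-1.17 ± 0.12) and Ano6 (-1.06 ± 0.17) fell. This lower count of 4 was 2 after repeated quantile normalization and with the control gap as a covariate. Kcna1 lost its call with that covariate, and Kcne4, under the bound in both tissues, with it, with median centring and without carotid body replicates 2 and 3 in turn. Ano6 and Clcn3 lost their calls after repeated quantile normalization and with the control gap, and Ano6 also with the mean of the control features as a covariate, with the replicate block, without carotid body replicate 2 and without ganglion replicate 4.

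Receptors and their intracellular partners were lower more often than higher. Of 73 neurotransmitter receptor genes 17 were lower and 3 higher. The nicotinic subunits Chrnb4 (-4.37 ± 0.60) and Chrna5 (-3.76 ± 0.36), the muscarinic receptor Chrm2 (-3.81 ± 0.32) and the glutamate receptor Gria1 (-3.7 ± 0.22) fell, and Gabra3 (3.46 ± 0.19), Chrna7 (2.5 ± 0.26) and P2ry12 (1.51 ± 0.18) rose. Chrm2 read 8.84, 7.36 and 8.04 in the carotid body and 12.07, 11.45, 11.66 and 12.38 in the ganglion. Gabra3, a subunit of the receptor for gamma-aminobutyric acid, read 9.59, 9.87 and 9.53 in the carotid body and 6.72, 6.0, 5.9 and 6.17 in the ganglion. The 2 genes ran in opposite directions. Of 28 G protein subunits 9 were lower and 1 higher, with Gng3 (-3.02 ± 0.27), Gnal (-2.71 ± 0.21), Gng2 (-2.0 ± 0.20) and Gnb5 (-1.7 ± 0.16) falling and Gng11 (1.46 ± 0.13) rising. Of 33 cyclic nucleotide enzymes 5 were higher and 12 lower. The phosphodiesterases Pde5a (4.67 ± 0.24), of smooth muscle, and Pde3a (2.5 ± 0.17) and the cyclases Adcy5 (2.47 ± 0.18) and Adcy4 (2.19 ± 0.08) rose, and Pde2a (-2.38 ± 0.28), Prkaca (-2.15 ± 0.26), Pde9a (-1.96 ± 0.13) and Prkar1b (-1.81 ± 0.25) fell. Pde5a read 11.80, 11.73 and 11.42 in the carotid body and 7.07, 7.02, 6.97 and 6.88 in the ganglion. Of 21 RGS proteins, which end G protein signals, Rgs5 rose and Rgs9 (-2.89 ± 0.20), Rgs7 (-2.62 ± 0.18), Rgs17 (-1.98 ± 0.20), Rgs8 (-1.06 ± 0.07) and Rgs7bp (-1.02 ± 0.24) fell, a lower count that was 3 with the control gap as a covariate, where Rgs8 and Rgs7bp lost their calls. Rgs7bp also lost its call with the replicate block, with the mean of the control features as a covariate, after repeated quantile normalization, and without carotid body replicates 2 and 3 and ganglion replicates 1 and 4 in turn.

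Cholesterol synthesis had the highest share of called members of all 64 lists. In this pathway acetyl-CoA is built up through mevalonate and squalene to cholesterol, and the transcription factor encoded by Srebf2 turns on nearly all of its genes when sterols are low. In this list 17 of 20 were lower and 0 higher (0 higher at an unadjusted limma p under 0.05), with a median of -2.19 and differences from -3.75 to -0.62. The carotid body arrays lay below all ganglion arrays in every one of the 20 genes, against 21.1% of all genes and 26.7% of protein-coding genes. HMG-CoA synthase, Hmgcs1, read 13.81, 12.03 and 12.69 in the carotid body and 16.80, 16.23, 16.41 and 16.91 in the ganglion, a difference of -3.75 ± 0.65 (adjusted p = 0.000938). Mevalonate kinase, Mvk, read 7.66, 6.55 and 6.82 in the carotid body and 10.73, 10.26, 10.47 and 10.99 in the ganglion (difference -3.6 ± 0.26, adjusted p = 2.35e-06). Farnesyl diphosphate synthase, Fdps, read 9.98, 8.24 and 8.7 in the carotid body and 12.52, 11.66, 11.96 and 12.57 in the ganglion. The sterol-ring enzymes Hsd17b7 (-3.11 ± 0.35), Cyp51 (-2.9 ± 0.38), Nsdhl (-2.79 ± 0.28) and Dhcr7 (-2.07 ± 0.17), the squalene enzymes Fdft1 (-2.21 ± 0.31), Sqle (-2.88 ± 0.36) and Lss (-2.18 ± 0.40), and Idi1 (-2.99 ± 0.43), Mvd (-2.61 ± 0.29), Pmvk (-1.7 ± 0.18) and Sc5d (-1.85 ± 0.19) were also lower.

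The regulators of the pathway were called in part. Srebf2 (-1.83 ± 0.25) itself and the sterol-regulated Insig1 (-1.89 ± 0.38) and Stard4 (-2.07 ± 0.19) fell, while Scap, Insig2 and Ebp differed by -0.62 ± 0.15, -0.73 ± 0.11 and -0.86 ± 0.11 and were not called. Insig1 read 10.31, 9.58 and 9.89 in the carotid body and 11.81, 11.41, 12.03 and 12.01 in the ganglion. Leaving out any 1 array left 17 genes of the list lower, as did a repeated quantile normalization. With the control gap as a covariate 14 were lower, and Hmgcs1, Lss and Insig1 lost their calls. The neuron markers, 14 of 15 lower, moved with the list. In Hmgcs1, Mvk, Fdps and Insig1 the order of the carotid body replicates, 1 then 3 then 2, was that of the neuron markers. Over all 2497 genes called lower, replicates 1, 3 and 2 differed from the ganglion by means of -1.59, -1.83 and -2.17. The order is thus not particular to this list. The part of the neuron markers in the result was not tested.

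**Figure D4:**
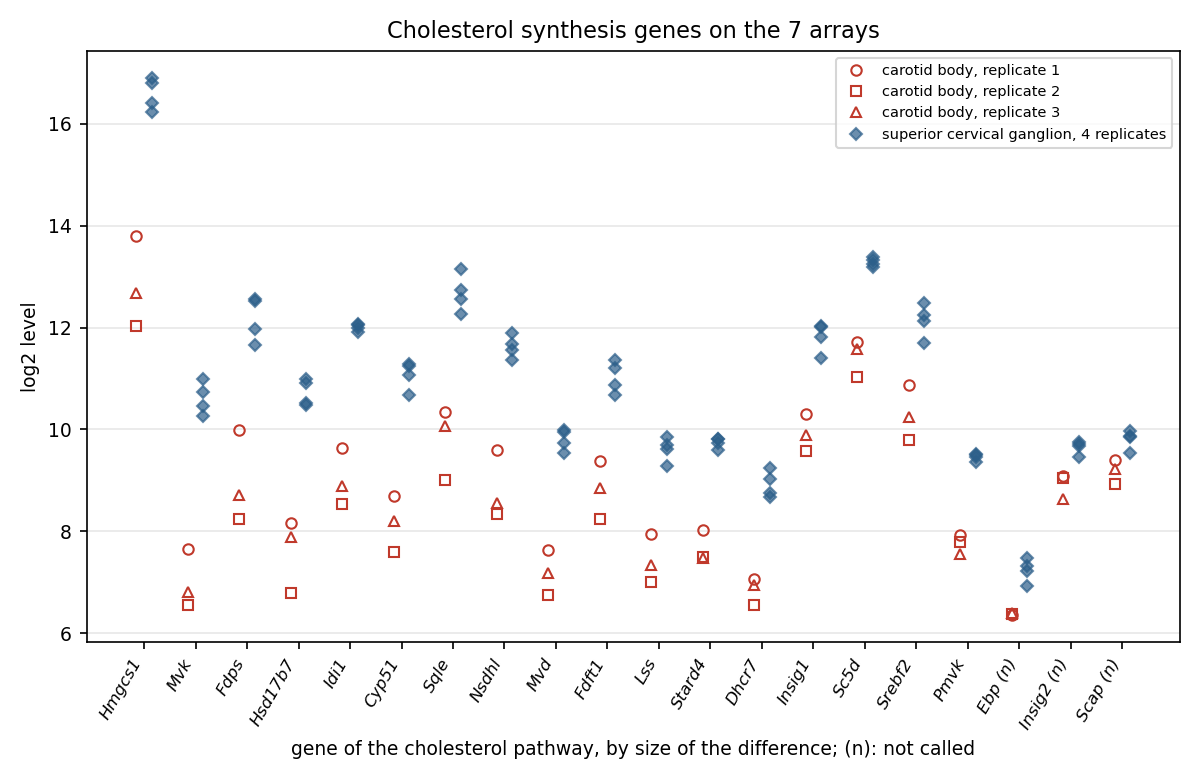
Log2 level of 20 cholesterol pathway genes (x axis, ordered by the size of the difference) on the 3 carotid body arrays (open symbols) and the 4 ganglion arrays (filled diamonds). In all 20 genes the carotid body arrays lie below the ganglion arrays, including the 3 genes marked as not called.

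The promoters of the list were searched, after the values were seen, for a sterol regulatory element, the site bound by the Srebf2 protein, spelled TCACNCCAC on either strand. Of the 20 genes 16 had a promoter window in RefSeq (GRCm38.p6). The letters occurred in 1 of them, Hmgcs1, against 1.42% of 15441 protein-coding genes with a window. The CArG box (CC, 6 bases of A or T, GG) was searched in 2 other lists. It occurred in 0 of 10 smooth muscle and pericyte genes and 2 of 21 immediate early genes, against 1.66% of protein-coding genes. Myl9, named above but not among those 10, had a match (CCTAATAAGG) from base -161 to base -152. Acta2 and Cnn1 had none in the 250 bases before the transcript start. The windows searched for these counts run on past the transcript start. Hmgcs1 had the largest fall in the list. Only the 250 bases of its window before the transcript start are shown, on the plus strand at chr13:119690101-119690350. The match, in capitals, lies from base -137 to base -129. A match is a description of these letters only.
Hmgcs1 promoter: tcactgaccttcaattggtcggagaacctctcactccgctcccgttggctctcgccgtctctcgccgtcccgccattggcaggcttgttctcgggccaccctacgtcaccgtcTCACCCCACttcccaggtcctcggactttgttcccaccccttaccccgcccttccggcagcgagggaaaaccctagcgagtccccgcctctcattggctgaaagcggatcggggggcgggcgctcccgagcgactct

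Fatty acid genes did not share the direction of cholesterol synthesis. Among them 10 of 43 were higher and 8 lower, with a median of 0.16. The scavenger receptor Cd36 (3.52 ± 0.26), lipoprotein lipase, Lpl (3.1 ± 0.24), and the triglyceride-forming enzyme Dgat2 (2.88 ± 0.31) rose with Fabp4, whereas the elongases Elovl4 (-2.77 ± 0.20) and Elovl6 (-2.22 ± 0.31), the carrier Fabp5 (-1.89 ± 0.19) and the mitochondrial importer Cpt1a (-1.82 ± 0.23) fell. Fatty acid synthase, Fasn, read 15.60, 14.63 and 14.21 in the carotid body and 12.61, 12.13, 12.42 and 12.35 in the ganglion, a difference of 2.44 ± 0.27 (adjusted p = 4.64e-05). Its direction was opposite to that of the cholesterol enzymes, with no overlap between the tissues. Adipocyte markers moved in the same direction, 7 of 9 higher, with array means of 8.52 to 9.12 in the carotid body and 6.26 to 6.5 in the ganglion, and their part was not tested.

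In amino acid and one-carbon metabolism 2 of 32 were higher and 8 lower. The transaminases Got1 (-3.39 ± 0.34) and Got2 (-2.46 ± 0.34), asparagine synthetase Asns (-2.84 ± 0.26) and the transporter Slc7a5 (-2.22 ± 0.33) fell. Got1 read 9.99, 8.38 and 9.67 in the carotid body and 12.97, 12.35, 12.44 and 13.20 in the ganglion. Cysteine dioxygenase, Cdo1, which opens the route from cysteine to taurine, read 14.43, 14.95 and 14.31 in the carotid body and 10.38, 10.69, 10.38 and 10.38 in the ganglion, and the glutamine transporter Slc1a5 (1.89 ± 0.34) rose but lost its call with the control gap as a covariate. Antioxidant genes were divided, since 8 of 38 were higher and 10 lower. The hydrogen peroxide-forming oxidase Nox4 read 8.68, 9.88 and 9.59 in the carotid body and 5.78, 5.41, 5.57 and 5.52 in the ganglion (difference 3.81 ± 0.23). Gpx3 (3.4 ± 0.19), a secreted glutathione peroxidase, Gstm2 (2.08 ± 0.19) and Mgst1 (1.95 ± 0.18) rose, and Mgst3 (-3.4 ± 0.20), Cat (-1.96 ± 0.35), Gclc (-1.57 ± 0.20) and Txn1 (-1.45 ± 0.15) fell. With the control gap as a covariate the lower count was 5, and Cat and Gclc lost their calls. In glycolysis and glucose uptake 1 of 29 were higher and 12 lower, led downward by the neuronal glucose transporter Slc2a3 (-3.72 ± 0.32) and Aldoc (-3.48 ± 0.28), with the pyruvate dehydrogenase kinase Pdk4 (3.15 ± 0.23) higher.

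Among nuclear-encoded subunits of the respiratory chain 2 of 77 were higher and 15 lower, with a median of -0.45. The lower count was 7 after repeated quantile normalization and 23 with the control gap as a covariate, so it depends on the scaling. Sdhd (-2.01 ± 0.18) and Ndufs8 (-1.89 ± 0.17) had the largest falls. The subunits that rose were Cox4i2 (3.3 ± 0.22) and Cox8b (3.09 ± 0.30), each a tissue-restricted form of a common subunit. Cox8b, the form of heart, skeletal muscle and brown fat, read 7.34, 8.49 and 8.69 in the carotid body and 5.51, 4.83, 4.8 and 5.18 in the ganglion. The carotid body arrays spread from replicate 1, the lowest, to replicate 3, and did not overlap the ganglion.

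Protein and membrane turnover genes were mostly lower where called. Among subunits of the proteasome, which degrades ubiquitin-tagged proteins, 11 of 30 were lower and 0 higher (0 higher at an unadjusted limma p under 0.05), with a median of -0.83. Psmc6 read 12.47, 12.24 and 12.26 in the carotid body and 13.96, 14.44, 14 and 13.74 in the ganglion, and Psmb7 (-1.59 ± 0.11) and Psma5 (-1.5 ± 0.19) fell as well. Psmd2 (-1.72 ± 0.23) and Psmd12 (-1.48 ± 0.20) fell but lost their calls with the control gap as a covariate. Among lysosomal and proton pump genes 1 of 31 were higher and 12 lower, and the higher count was 4 after repeated quantile normalization and 2 with array weights or the control gap as a covariate. The subunit Atp6v0e2 read 11.54, 10.57 and 11.34 in the carotid body and 14.43, 14.09, 14.02 and 14.22 in the ganglion, and Atp6v1e1 (-2.71 ± 0.20), Atp6v1a (-2.36 ± 0.28) and Atp6v0a1 (-2.27 ± 0.34) fell, while Atp6v0e (1.46 ± 0.22), the close relative of Atp6v0e2, rose. Atp6v0e read 10.18, 10.61 and 11.08 in the carotid body and 9.21, 9.49, 9.13 and 8.83 in the ganglion. This pump acidifies lysosomes and transmitter vesicles, and the pair of e subunits lay on opposite sides.

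Among sodium and calcium pumps 2 of 18 were higher and 8 lower. Modulators of the sodium pump were divided, with Fxyd7 (-3.14 ± 0.13), Fxyd6 (-2.74 ± 0.20) and Fxyd2 (-2.59 ± 0.24) lower and Fxyd1 (2.38 ± 0.31) higher. The pump subunit Atp1b1 (-2.45 ± 0.37) fell, and the calcium pump Atp2a3 (2.77 ± 0.11) of the endoplasmic reticulum rose. Fxyd6 read 11.93, 11.08 and 11.64 in the carotid body and 13.92, 14.48, 14.40 and 14.37 in the ganglion, and Atp2a3 read 9.12, 8.76 and 8.78 in the carotid body and 6.36, 6.08, 5.93 and 6.07 in the ganglion. Both genes were called, in opposite directions. Among chaperones 4 of 31 were higher and 7 lower. The clathrin uncoating factor Dnajc6 (-2.66 ± 0.21), the vesicle chaperone Dnajc5 (-1.71 ± 0.13) and Hspb8 (-2.06 ± 0.18) fell, and Hspb7 (2.25 ± 0.26), of heart and muscle, rose. The lower count of chaperones was 4 with the control gap as a covariate, and the higher count was 2 without carotid body replicate 2. Among ribosomal protein genes 7 of 31 were higher and 1 lower, but the higher count was 3 without carotid body replicate 3, 12 without replicate 1, 13 after repeated quantile normalization and 0 with the control gap as a covariate, so no statement is made on single members.

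In catecholamine synthesis and transport 10 of 15 were lower and 0 higher (0 higher at an unadjusted limma p under 0.05), with a median of -1.56. The neuron markers fell with this list too, 14 of 15, and their part was not tested. Both tissues make catecholamines, from tyrosine through dopa and dopamine. The vesicle transporter Slc18a2 read 13.97, 12.50 and 13.43 in the carotid body and 16.78, 16.19, 16.42 and 16.99 in the ganglion, a difference of -3.29 ± 0.31. The cofactor enzyme Gch1 (-2.38 ± 0.27) and the monoamine oxidases Maoa and Maob also fell. Dopamine beta-hydroxylase, Dbh (-2.14 ± 0.49), tyrosine hydroxylase, Th (-1.52 ± 0.23), and the noradrenaline transporter Slc6a2 (-3.58 ± 0.64) fell, but lost their calls with the control gap as a covariate, where the count was 6. Dbh read 19.11, 16.17 and 17.77 in the carotid body and 19.83, 19.81, 19.83 and 19.83 in the ganglion, and the ganglion arrays lay near the highest values of the arrays, so its difference is a lower limit. The difference of Dbh was -1.39 without carotid body replicate 2. Sympathoadrenal transcription factors were lower in 6 of 15 cases, with Tfap2b (-3.91 ± 0.38), Hand1 (-3.04 ± 0.30), Isl1 (-2.53 ± 0.22) and Phox2a (-2.02 ± 0.30) leading, and Prrx1 (3.08 ± 0.11), a factor of mesenchyme, was higher. Among neuropeptide and granule genes 4 of 31 were higher and 4 lower. The granins Chga (1.98 ± 0.28) and Chgb (1.64 ± 0.18) and the peptides Vip (1.57 ± 0.27) and Penk (1.39 ± 0.19) rose, while the prohormone convertase Pcsk1 (-3.05 ± 0.28), its inhibitor Pcsk1n (-1.81 ± 0.25) and the peptides Gal (-1.9 ± 0.30) and Npy (-1.74 ± 0.17) fell. Chga read 15.41, 14.45 and 14.67 in the carotid body and 13.50, 12.24, 12.71 and 13.02 in the ganglion. Pcsk1 read 8.27, 6.99 and 7.53 in the carotid body and 10.95, 10.27, 10.44 and 10.95 in the ganglion. Chga and Pcsk1 did not overlap between the tissues and differed in opposite directions.

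In the hypoxia-inducible factor list 7 of 30 were higher and 3 lower. Beside Epas1 (difference 6.74), Hif1a differed by 0.95 ± 0.16 and was not called, and the partner Arnt2 (1.77 ± 0.20) rose. The target genes Adm, Vegfa (2.1 ± 0.31) and Cox4i2 were higher, and Egln3 (-2.08 ± 0.23), Higd1a (-1.88 ± 0.14) and Ero1a (-1.15 ± 0.16) were lower. Ero1a lost its call after repeated quantile normalization and with the control gap as a covariate. Vegfa read 10.01, 10.31 and 10.95 in the carotid body and 7.94, 8.5, 8.74 and 8.12 in the ganglion, and Egln3, a hydroxylase that marks the factor for destruction, read 7.46, 7.25 and 7.46 in the carotid body and 9.76, 9.25, 8.86 and 10.03 in the ganglion. Both genes are known targets of the factor, and they differed in opposite directions. The core letters of its binding site, ACGTG, were searched on both strands after the values were seen. They occurred in the promoter windows of 16 of 24 genes of the list, against 19.6% of all windows and 23.9% of protein-coding genes. The 4 with a match among the 6 called genes with a window were Vegfa, which rose, and Egln3, Higd1a and Ero1a, which fell. The list was chosen as genes of this pathway, so its share is not a result of these arrays. Here too a match describes the letters only.

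Acid handling, gap junction and signalling lipid genes added members in both directions. Carbonic anhydrases interconvert carbon dioxide and bicarbonate. Car2 (4.21 ± 0.18), Car3 (3.65 ± 0.23) and Car12 (1.85 ± 0.20) rose with Slc9a2, and Slc9a7 (-2.48 ± 0.29), Slc4a8 (-1.94 ± 0.24) and Slc4a4 (-1.38 ± 0.13) fell, of 28 measured. Car2 read 9.83, 9.8 and 10.48 in the carotid body and 5.67, 5.83, 6.04 and 5.76 in the ganglion. The gap junction protein Gjd2, the main electrical synapse protein of neurons, read 10.29, 9.51 and 10.41 in the carotid body and 8.17, 6.59, 6.97 and 7.1 in the ganglion, a difference of 2.86 ± 0.34 (adjusted p = 7.13e-05). The channel Panx1 (-1.38 ± 0.13) fell. Of 19 S100 and annexin genes 3 were higher, led by the annexins Anxa1 (3.18 ± 0.12) and Anxa3 (2.46 ± 0.18), and 2 were lower, a count of 0 after repeated quantile normalization and 1 with the control gap as a covariate. Among receptors of the interleukin-6 family, Osmr (3.03 ± 0.16) and the shared subunit Il6st (1.7 ± 0.12) rose and Lifr (-1.28 ± 0.20) fell, a call lost after repeated quantile normalization. Among lysophospholipid and endocannabinoid genes 1 of 19, the sphingolipid receptor S1pr1 (1.77 ± 0.11) of endothelium, was higher and 1 was lower, a count of 0 after repeated quantile normalization and without carotid body replicate 2. Among prostaglandin and leukotriene genes 3 of 29 were higher, with the prostacyclin synthase Ptgis (1.49 ± 0.14) leading, and 2 lower, which became 0 with the control gap as a covariate. Of 25 cell cycle genes Ccne1 (-1.61 ± 0.24) was the only one called, lower, and lost its call with the control gap as a covariate.

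Paralogue pairs, a neuronal or common form beside a widely expressed or tissue-restricted one, showed opposite calls in 3 of 16 cases. Snap25 (-1.74 ± 0.29) fell while Snap23 rose by 1.3 ± 0.21. Ptbp2 (-1.54 ± 0.13), the neuronal form of a splicing repressor, fell and Ptbp1 rose by 1.5 ± 0.08. Ptbp1 read 10.27, 10.25 and 10.25 in the carotid body and 8.79, 8.77, 8.83 and 8.63 in the ganglion, and Ptbp2 read 9.66, 9.57 and 9.61 in the carotid body and 11.31, 10.85, 11.08 and 11.37 in the ganglion. The tissues did not overlap in either gene. Ndufa4 (-1.03 ± 0.30) fell beside Ndufa4l2, a call lost with only the 7 arrays of these tissues, after repeated quantile normalization, with array weights, without carotid body replicate 1 and without ganglion replicates 2 and 3 in turn. Its difference was -1.89 with the control gap as a covariate. Both members fell in Napb (-5.2 ± 0.60) and Napa (-1.6 ± 0.19), in Rab3a (-1.35 ± 0.20) and Rab3d (-2.51 ± 0.20), and in Camk2b (-1.28 ± 0.18) and Camk2d (-1.48 ± 0.16). In Vamp1 (-2.01 ± 0.21), Kif5c (-2.89 ± 0.22), Dync1i1 (-2.75 ± 0.29) and Elavl4 the neuronal form fell, while Vamp8 (0.89 ± 0.16), Kif5b (-0.63 ± 0.14), Dync1i2 (-0.87 ± 0.10) and Elavl1 (0.26 ± 0.07) were not called. The pairs Tubb3 and Tubb6 (-0.38 ± 0.23), Cox4i2 and Cox4i1 (-0.52 ± 0.12), Epas1 and Hif1a, and Cox7a2 (-1.19 ± 0.20) and Cox7a1 (-0.04 ± 0.23) each had 1 called member. With the control gap as a covariate Snap25, Snap23 and Camk2b lost their calls, and Cox7a2 lost its call after repeated quantile normalization and without ganglion replicate 2. Gnao1 (-0.92 ± 0.22) and Gnai2 (0.30 ± 0.11), and Atp6v1g2 (-0.85 ± 0.11) and Atp6v1g1 (0.01 ± 0.14), had none.

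Families grouped by the stem of the symbol gave further members. Only families with 8 or more measured protein-coding genes were taken, and calls in the other direction stand in brackets. Of all protein-coding genes 5.35% were higher and 10.4% lower. The highest shares upward were 5 of 12 Bmp genes (1 lower), 4 of 10 Fzd genes (1 lower) and 4 of 10 Rassf genes. Next came 3 of 8 Gimap genes, 3 of 8 Smad genes (2 lower) and 6 of 17 Klf genes (2 lower). After these stood 14 of 42 Col genes and 3 of 9 Epha genes (1 lower). The Wnt receptor Fzd4 (2.68 ± 0.19) and the Kruppel-like factors Klf3 (1.75 ± 0.12) and Klf12 (1.48 ± 0.19) rose, as did Rassf9 (2.12 ± 0.16), Rassf3 (1.55 ± 0.12) and Rassf4 (1.3 ± 0.13), although Klf12 and Rassf4 lost their calls with the control gap as a covariate. The highest shares downward were 6 of 8 Tubb genes, 11 of 17 Syt genes and 5 of 8 Kcnh genes. Then came 5 of 8 Rtn, 6 of 10 Camk (1 higher), 6 of 11 Scn (1 higher) and 15 of 29 Ap genes. The last are mostly adaptor proteins that load cargo into clathrin-coated vesicles, with Ap3s2 (-2.66 ± 0.21), Ap3b2 (-2.17 ± 0.25) and Ap2a2 (-1.84 ± 0.23) leading. Ap3b2, a neuronal subunit, read 7.77, 7.07 and 7.42 in the carotid body and 9.77, 9.01, 9.34 and 10.22 in the ganglion. The kinases Mapk10 (-3.15 ± 0.35), Mapk9 (-2.04 ± 0.17) and Mapk8 (-1.39 ± 0.11), which are the c-Jun kinases, fell together with their scaffold Mapk8ip2 (-3.1 ± 0.27). The reticulon Rtn1 (-1.83 ± 0.24) and the kinase Camk2a (-2.22 ± 0.18) fell too. The carotid body arrays lay below all ganglion arrays in each of the genes named as falling here, against 26.7% of protein-coding genes. These genes were picked from called members, so this separation is not independent of the calls.

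Genes without protein products were examined after their values were seen. The array labels total RNA, and a cluster for a small RNA can read its host transcript as well as the small RNA. Small nucleolar RNAs (snoRNAs), which guide chemical marks on other RNAs, were divided by their position. Of 955 snoRNA genes 177 were lower and 36 higher, and 169 of the 177 lie inside Snhg14, by RefSeq positions. Snhg14 is an imprinted host transcript that carries long arrays of near-identical snoRNA copies. Of 170 such copies measured, which share 78 distinct profiles and so are not independent, 169 were lower, with a median of -3.28. Their mean level was 9.98, 9.73 and 10.76 in the carotid body and 12.92, 13.80, 13.32 and 13.25 in the ganglion. In 165 of them the carotid body arrays lay below all ganglion arrays. Leaving out 1 array gave 167 to 170 lower, and the control gap as a covariate 166. The host Snhg14 itself fell by less, -1.22 ± 0.16, and Ube3a, the ubiquitin ligase gene that its far end overlaps in antisense, differed by -0.21 ± 0.13 and was not called. Of the 785 other snoRNA genes 36 were higher and 8 lower. The higher count ran from 22 to 64 when 1 array was left out, and with the control gap as a covariate 13 were higher and 16 lower. Snord82 read 14.14, 13.71 and 14.67 in the carotid body and 10.16, 9.66, 9.47 and 9.89 in the ganglion.

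Among 599 microRNA genes 42 were higher and 2 lower, beside 5.61% and 8.28% over all genes. The Mir466, Mir467, Mir669 and Mir297 genes made up 25 of the 42, out of 76 measured, with a median of 0.68, and none of them was called lower. Of these genes 68 lie inside Sfmbt2, and 21 of the 68 were higher, while Sfmbt2 itself differed by 0.03 ± 0.07 and was not called. The cluster kept for a gene can lie at another locus than the gene: in 61 of the 68 it was on the same chromosome, and 17 of these were higher. Mir467f and Mir466f-1 were read from clusters on other chromosomes than the genes. Mir467f read 15.83, 16.58 and 16.08 in the carotid body and 10.75, 12.61, 10.05 and 11.91 in the ganglion, and Mir466f-1 read 17.50, 18.30 and 17.79 in the carotid body and 12.67, 13.10, 13.86 and 12.16 in the ganglion. The difference of Mir467f was 2.90 when all of its clusters were averaged. With the control gap as a covariate 8 of the 76 were higher, so the count depends on it, and Mir466j (1.32 ± 0.31) and Mir466k (1.3 ± 0.31) lost their calls. Mir1187 (1.17 ± 0.28), outside these names, lost its call there, with the mean of the control features as a covariate and without ganglion replicate 4. Also outside this group, Mir218-2 was higher and Mir138-2 lower, with the ganglion mean of the first and the carotid body mean of the second under the background bound, so that the folds were at least 1.64 and at least 1.63. Their hosts Slit3 (1.96 ± 0.09) and Nup93 (-1.61 ± 0.12) were called in the same direction. Mir574 rose by 1.91 ± 0.27, and Mir27a, under the bound in the ganglion, was at least 1.61-fold higher. Mature RefSeq sequences of the genes named here are shown so that their seeds, bases 2 to 8 in capitals, can be compared. Where a gene yields a mature form from each arm, 1 arm is shown, and the array value cannot tell the arms apart.
miR-467f: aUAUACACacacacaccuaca
miR-466j: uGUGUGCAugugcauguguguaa
miR-466k: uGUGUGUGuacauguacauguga
miR-1187: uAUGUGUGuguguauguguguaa
miR-574-5p: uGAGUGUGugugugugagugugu
miR-218-5p: uUGUGCUUgaucuaaccaugu
miR-138-5p: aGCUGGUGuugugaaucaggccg
miR-27a-3p: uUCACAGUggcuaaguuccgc
The first 5 consist largely of alternating U with G or A with C, and no 2 of the 8 sequences shown share a seed.

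**Figure D5:**
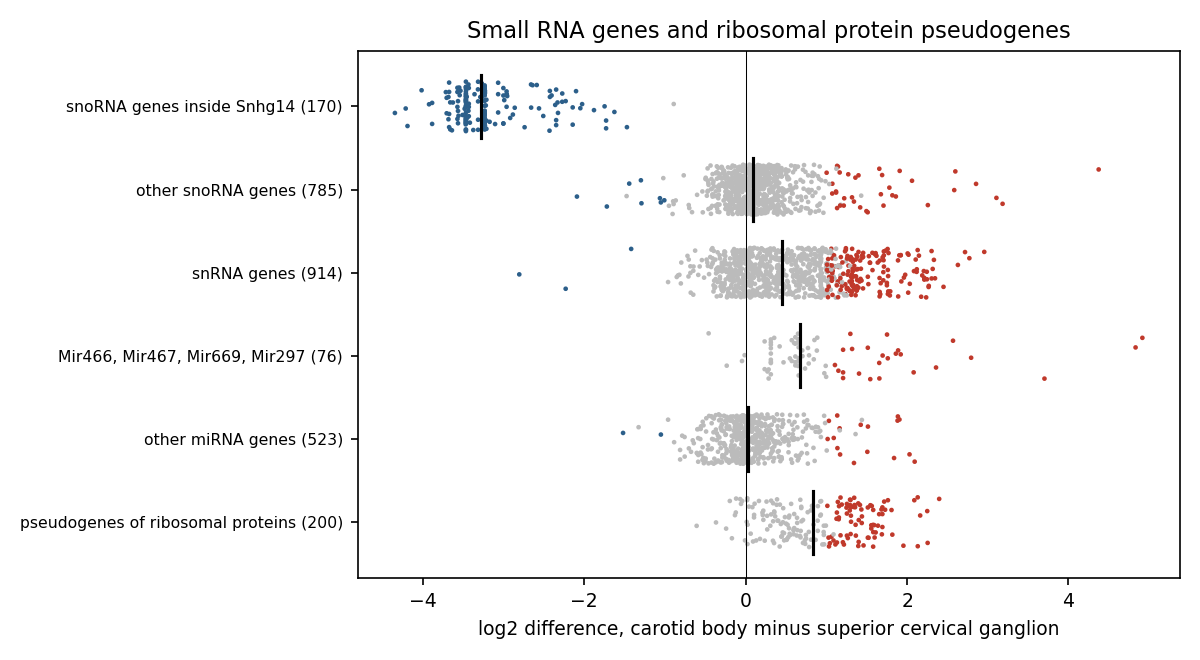
Log2 difference, carotid body minus ganglion, of each small RNA gene and ribosomal protein pseudogene (points; red called higher, blue lower, grey not called), with the median of each set as a bar. The 170 snoRNA genes inside Snhg14 lie around -3.28, apart from the 785 other snoRNA genes around 0.09.

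Small nuclear RNA genes and ribosomal protein pseudogenes were often called higher, but the counts moved with single arrays. Of 914 small nuclear RNA genes 174 were higher and 3 lower. The higher count was 349 without carotid body replicate 1, 93 without replicate 2, 281 after repeated quantile normalization and 24 with the control gap as a covariate. Of 200 pseudogenes with the symbols Rpl and Rps 84 were higher, which became 104 without replicate 1 and 9 with the control gap as a covariate. Among long noncoding RNAs Carmn, known from smooth muscle and heart, read 8.18, 9.92 and 8.89 in the carotid body and 6.04, 6.21, 6.22 and 5.99 in the ganglion, a difference of 2.88 ± 0.31. Neat1 rose by 1.88 ± 0.46 and lost its call with the control gap as a covariate.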

How the data were processed

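RNA of pooled mouse tissue was measured on Affymetrix mouse transcriptome arrays. The deposited values are log2 levels that the authors normalized by RMA, a step that the submitters' processing notes list with Affymetrix Expression Console; versions, builds and probe mapping are not given in the sources used here. Of 65956 clusters, 30604 had 1 symbol, 2146 several and 33206 none in the platform annotation. For each gene the cluster with the highest mean over 11 arrays was kept, and 830 symbols were updated through Entrez identifiers. Of the genes 452 share all values with another gene.

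All 11 arrays entered limma 3.58.1 (R 4.3.3; lmFit, eBayes) with tissue as factor, and p-values were adjusted by Benjamini-Hochberg over 30141 genes. The fit was tested on simulated data. Replicates are pools, and p-values measure only the spread between these pools, which may be partly technical. The number of arrays limits the precision, and no read depth applies. Named were the 30 largest protein-coding differences in each direction whose tissues did not overlap, up to 4 called members per list and direction, members of lists with few calls, paralogue pairs and symbol families. Other genes, and all noncoding genes, were chosen after their values were seen. The lists and members were chosen with earlier results of these data known. Alternatives covered scaling, covariates, weights, filters, cluster choice, the genes tested, the threshold and leaving out each array.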

Additional observations from a re-analysis of the deposited data

Results flagged for a closer look

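In 20 of the 436 genes named in the text, the highest or the lowest of the 4 ganglion arrays stood farther from its nearest neighbour than Dixon's 95% limit allows for the gap as a share of the range. For normally spread values chance gives about 1 in 20 groups. In some flagged genes, such as Cdo1 and Gfra3, the remaining ganglion arrays hold an identical value. That share therefore does not strictly apply, and no comparison with chance is drawn. Groups of 3 carotid body arrays were not tested.

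The highest ganglion array stood apart in Atp1b1 at 17.96 on replicate 4 against 17.65 to 17.69, Car3 at 10.97 on replicate 1 against 10.88 on the other 3 and Cdo1 at 10.69 on replicate 2 against 10.38 on the other 3. It did so as well in Chrdl1 at 8.0 on replicate 1 against 7.59 to 7.64, Gfra3 at 10.20 on replicate 1 against 9.94 on the other 3 and Itgb4 at 8.68 on replicate 3 against 8.35 on the other 3. The same was found in Kcnmb1 at 5.77 on replicate 2 against 5.65 to 5.67, Mir27a at 4.88 on replicate 3 against 4.50 to 4.56 and Myl9 at 8.04 on replicate 2 against 7.29 to 7.35. A high array was also present in Ntn4 at 7.62 on replicate 3 against 7.37 on the other 3, Sfrp4 at 6.61 on replicate 2 against 6.42 on the other 3 and Tgfb2 at 8.39 on replicate 3 against 8.03 to 8.09.

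The lowest ganglion array stood apart in Cdon at 6.36 on replicate 3 against 6.42 to 6.43, Cpt1a at 14.64 on replicate 2 against 14.72 on the other 3 and Fxyd7 at 14.43 on replicate 3 against 14.80 to 14.84. A low array was also present in H2-Aa at 5.51 on replicate 4 against 5.99 to 6.03, Ltbp4 at 7.79 on replicate 2 against 7.97 to 7.98 and Penk at 5.13 on replicate 3 against 5.63 to 5.65. Likewise low were Sfmbt2 at 4.93 on replicate 3 against 5.05 on the other 3 and Sfrp2 at 5.22 on replicate 3 against 5.69 to 5.78. The difference between the tissues was not computed without these single values, but leaving out each whole array is among the alternatives.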

How the results depend on the processing

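Of the 412 named genes that were called, 358 kept the call under every alternative except the stricter 2-fold test, which 94 did not pass. Leaving out 1 array ended the call of 19, a repeated quantile normalization that of 15, and the control gap as a covariate that of 48, while a further 31 kept the call with that covariate and moved by over 1.5 times. The count of higher genes was 1079 with the control gap, 1020 with protein-coding genes only, 2885 over all non-control features and 636 with limma's treat, and the count of lower genes was 1164 with treat. With the control gap, 715 of the higher and 780 of the lower calls were lost. Leaving out each array in turn gave 1440 to 2104 higher and 2299 to 2675 lower genes, with the highest counts without carotid body replicate 1. The median difference ran from -0.09, with median centring, to 0.01, beside an SD of array medians in a tissue of 0.07. The other counts over all genes stayed within 1.5 times the reported ones, and no called difference of a named gene changed sign in any alternative.

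Replicate numbers pair the samples in no label, and same-numbered samples deviated together only weakly, with correlations of 0.07, 0.25 and 0.05. The replicate block gave 1619 higher and 2497 lower genes and ended the calls of 3 named genes, Ano6, Gpc2 and Rgs7bp. Because the control gap does not overlap between the tissues, its covariate and the tissue cannot be fully told apart. Genes under the background bound are limited by signal over background.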
